A study of Mus musculus with 4 samples.

Results

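The control side of a microarray study of diet-induced obese (DIO) mice was described by itself: the liver transcriptome of the saline-treated animals, ranked by signal. Genes were ranked by the control channel alone, by the mean log2 processed signal over 4 hybridisations, with the brightest probe standing for each gene name, and no ratio to the treated samples was used. Of 26582 gene names on the array, 26535 had a probe that was unflagged in all 4 control channels and entered the ranking.

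The mice were male C57BL/6J animals that were made obese by 14 weeks of high-fat diet, weighed at least 40 g, and received 2 µL of saline intranasally once a day for 11 days. They had free access to the high-fat diet throughout the treatment, and were acclimatized beforehand with daily intranasal saline. The study set them against obese mice given galanin-like peptide (GALP) in the same way, and no lean or chow-fed liver was measured, so nothing here separates the effect of the diet from the normal liver. RNA of 8 control livers was pooled, and this 1 pool was hybridised 4 times on 2-colour Agilent arrays, beside a GALP pool of mice with greater weight loss (control channel 1 in Cy3, control channel 2 in Cy5) and a GALP pool of mice with less weight loss (control channel 3 in Cy3, control channel 4 in Cy5). The labels attach the weight loss groups to the control channels as well, while the study's design describes a single control pool. The 4 channels are therefore technical repeats of 1 sample, each SD below is the spread between hybridisations (n = 4) and holds no difference between mice, and no test of a biological difference was possible.

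The liver makes most proteins of blood plasma, including albumin, the apolipoproteins that carry lipids, the clotting factors and complement. Its hepatocytes also burn, make and export fat, keep blood glucose, turn ammonia into urea, make bile acids from cholesterol and modify drugs with cytochromes P450 and conjugating enzymes. In diet-induced obesity, hepatocytes store triglyceride in lipid droplets. An array signal depends on how well a probe binds as well as on the amount of RNA, so signals of different genes are given as ranks and percentiles (100 = brightest) and not as ratios. In whole liver, few cells of a type and little RNA per cell cannot be told apart.

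Of the 26535 ranked genes, 10958 (41.3%) were well above background in all 4 control channels, by the call of the scanner software, and 11271 (42.5%) in none. The other genes were called in 1 channel (3196 genes), 2 channels (645) or 3 channels (465). Of the genes called in 1 channel, 1270 were called in control channel 2 alone and 1354 in control channel 4 alone, both Cy5, against 301 and 271 in the Cy3 channels. The mean log2 signal of genes called in all 4 channels ran from 5.43 to 16.84, with a median of 9.39, and that of genes called in none ran from 2.68 to 5.30. No spot of a gene probe was saturated in a control channel. Over the genes called in all 4 channels, the channels correlated at Pearson's r of 0.988 to 0.993, as a description across genes that share probes and arrays, and the median SD was 0.17. Over all ranked genes, r was 0.946 to 0.977 and the median SD was 0.31.

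**Figure D1:**
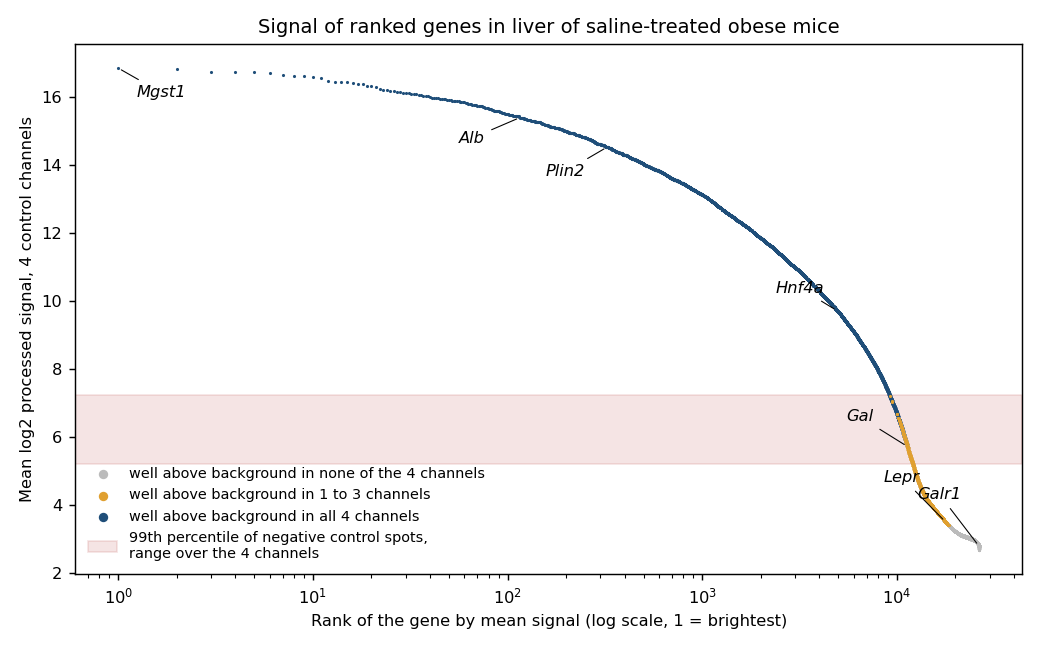
Mean log2 processed signal of each ranked gene (vertical axis) against its rank (horizontal axis, log scale), coloured by the number of control channels in which the gene was well above background; the band spans the 99th percentile of negative control spots in the 4 channels, 5.20 to 7.24. Alb and Plin2 lay high on the curve, Hnf4a in its middle part, Gal inside the band, and Lepr and Galr1 at its foot.

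The signal was spread over many genes. The 10 brightest genes held 2.92% ± 0.21 (SD, n = 4 channels) of the summed signal, the 100 brightest 18.2% ± 0.68 and the 1000 brightest 64.0% ± 0.85. These shares are of fluorescence and not of RNA molecules. Of the 100 brightest genes, 39 belonged to a list of liver functions used below and 13 had names of cytosolic ribosomal proteins, of subunits of NADH dehydrogenase, cytochrome c oxidase, ATP synthase or the proteasome, or of translation factors. Of the 1000 brightest, the corresponding numbers were 194 and 118.

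The brightest gene was Mgst1, a membrane-bound glutathione transferase, with 16.90, 16.56, 17.19 and 16.72 in control channels 1 to 4 (log2 signal here and below, in this order). Acaa2, which carries out the last step of mitochondrial fatty acid oxidation, read 16.80, 16.58, 16.93 and 16.90. Hpx, the plasma protein hemopexin that binds free heme, read 16.81, 16.51, 16.92 and 16.70. The 3 genes overlapped in their ranges, and each had its lowest value in control channel 2. They were followed by the ribosomal RNA Rn18s, the plasma serpin Serpina3m, the antioxidant enzyme Gpx1, the sequence named AJ428208, the cytochrome oxidase subunit Cox6a1, the cytochrome P450 Cyp2d26 and the ferritin heavy chain Fth1. Ranks 11 to 25 were taken by Cyp2d9, Pcbd1, Gnmt, Ces3b, Apoc2, Gapdh, Cyp2d10, C3, Akr1c6, Serpina3k, Aldh1a1, Serpina1d, Apoc1, Gstp1 and the ferritin light chain pseudogene Ftl2-ps.

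The order within this group was not resolved. In 0 of the 24 pairs of neighbours among the 25 brightest genes was the order the same in every channel. The ranges over the 4 channels overlapped in all 24 pairs. They include differences between channels, which were not normalized between arrays, so the overlap cannot show whether the order was resolved. Membership was steadier: 18 of the 25 brightest genes were among the 25 brightest of every channel, as were 83 of the 100 brightest and 913 of the 1000 brightest for their own number. Among the widest SDs of the 1000 brightest genes were those of Gm6607 (0.94), the transcript ENSMUST00000219220.1 (0.86), the retinal dehydrogenase Aldh1a1 (0.65) and Cyp2b9 (0.57). Aldh1a1 read 17.27 in control channel 1 and 15.91, 16.02 and 15.99 in the other channels. All 4 of these genes were highest in control channel 1.

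**Figure D2:**
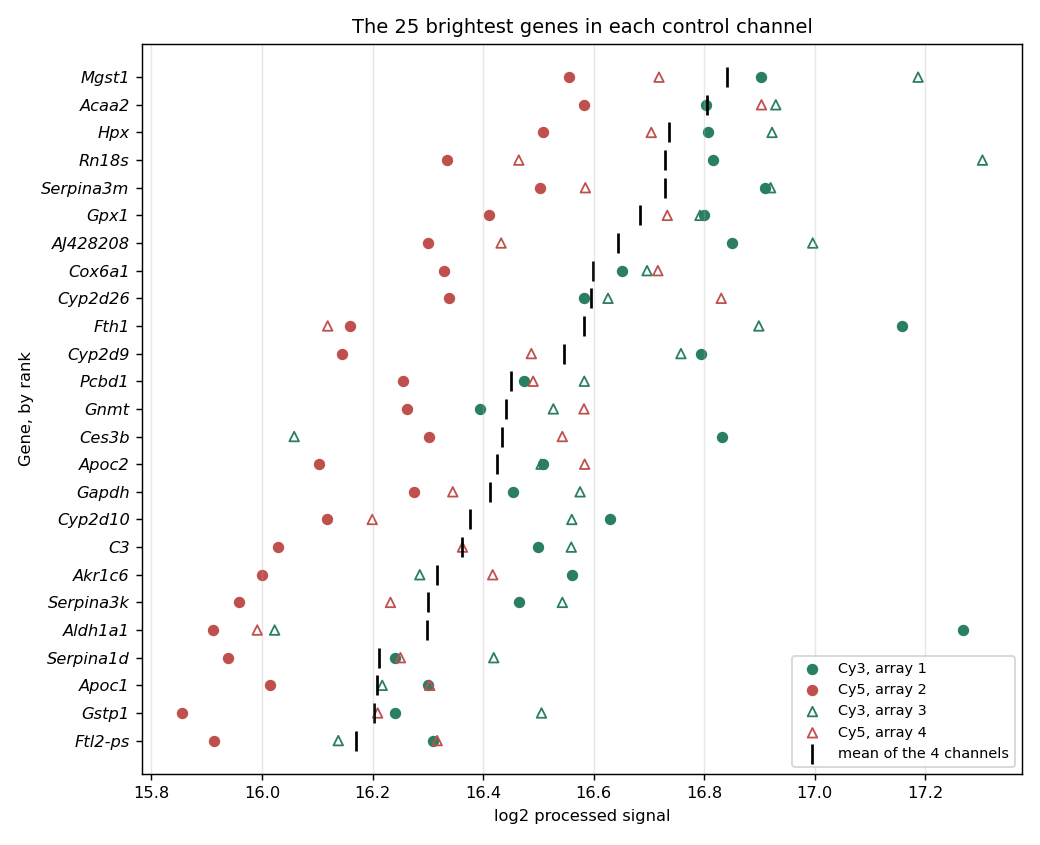
Log2 processed signal (horizontal axis) of the 25 brightest genes (vertical axis, by rank) in each control channel; colour gives the dye, and filled circles are arrays shared with the greater weight loss pool and open triangles those shared with the less weight loss pool. Vertical ticks are means of the 4 channels; the points of neighbouring genes overlapped throughout, and Aldh1a1 in array 1 lay apart from its other channels.

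Several of the brightest genes lie in the same region of a chromosome and are similar in sequence. The probes of Serpina1d (105001833 to 105001892), Serpina3k (105583645 to 105583704) and Serpina3m (105632342 to 105632400) lie on chromosome 12 (mm9, the build of the probe positions). Those of Cyp2d10 (82233388 to 82233447), Cyp2d9 (82286799 to 82286858) and Cyp2d26 (82620575 to 82620634) lie on chromosome 15. A probe of 1 such gene can bind RNA of its relatives, so the places of the single Serpina, Cyp2d and Mup genes are uncertain. The files do not say in which part of a transcript a probe lies.

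Secreted proteins of plasma and urine stood high as a group. Over 7 lists of them, 110 of 114 ranked genes (96.5%) were well above background in all 4 channels, against 41.3% of all genes, and their median percentile was 97.3, against 50 over all genes by construction. Of these 114 genes, 21 were among the 100 brightest and 67 among the 1000 brightest.

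Among the apolipoproteins, 13 of 13 ranked members were above background in all 4 channels and 12 were among the 1000 brightest genes. Apoc2, the cofactor of lipoprotein lipase, read 16.51, 16.10, 16.50 and 16.58 (rank 15). Apoc1, rank 23, read 16.30, 16.01, 16.22 and 16.30, and Apoe, the ligand for uptake of lipoprotein remnants, read 16.28, 15.83, 16.18 and 16.25 (rank 28). These genes share a short stretch of chromosome 7 (mm9) with Apoc4, rank 181, their probes lying between 20257027 (Apoc2) and 20281791 (Apoe). The median member was Apoh at rank 127 and the lowest was Mttp, which loads lipid onto apolipoprotein B and is no apolipoprotein itself, at rank 3199 with a mean of 10.84 ± 0.17 (SD). Apob, the structural protein of very low density lipoprotein, stood at rank 129 with 16.06, 14.94, 15.23 and 14.996, control channel 1 being apart from the other 3.

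Of 17 ranked plasma carriers, 16 were above background in all 4 channels. Albumin, the most abundant plasma protein, was not at the top of the ranking: Alb read 15.83, 14.996, 15.26 and 15.46 and stood at rank 116, between rank 74 and rank 168 in single channels. Transferrin (Trf) stood at rank 69, the median carrier Ahsg at rank 244 and transthyretin (Ttr) at rank 2240, with 11.64, 11.84, 11.64 and 11.36. Shbg, which carries sex steroids, was the lowest at rank 26034 and was not above background in any channel (2.90, 2.56, 3.06 and 3.002).

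All 13 plasma serpins, protease inhibitors of blood, were above background in all 4 channels, from Serpina3m at rank 5 through Serpind1, the heparin cofactor, at rank 370, to Serpina10 at rank 4759. So were all 22 ranked genes of coagulation and fibrinolysis. Of the fibrinogen chains, which lie together on chromosome 3, Fgg read 16.37, 15.77, 16.18 and 15.87 (rank 36), Fgb 16.06, 15.71, 16.05 and 16.07 (rank 41) and Fga 14.37, 13.96, 14.27 and 14.28 (rank 424). Of 23 complement genes and collectins, 22 were above background in all 4 channels, led by the central component C3 (16.50, 16.03, 16.56 and 16.36, rank 18), and C7 was above background in none (mean 3.58 ± 0.70).

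Among 20 acute phase genes, 18 were above background in all 4 channels. Haptoglobin (Hp) led them at rank 138, the median member was Itih4 at rank 1452, and A2m was the lowest at rank 14625, with 3.05, 2.36, 4.70 and 6.23 and a call in 1 channel. The 7 ranked major urinary proteins, pheromone carriers that male mouse liver secretes, were all above background, with Mup3 at rank 34, the median Mup5 at rank 195 and Mup6 at rank 5363. They are near-identical in sequence, so single members are uncertain.

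**Figure D3:**
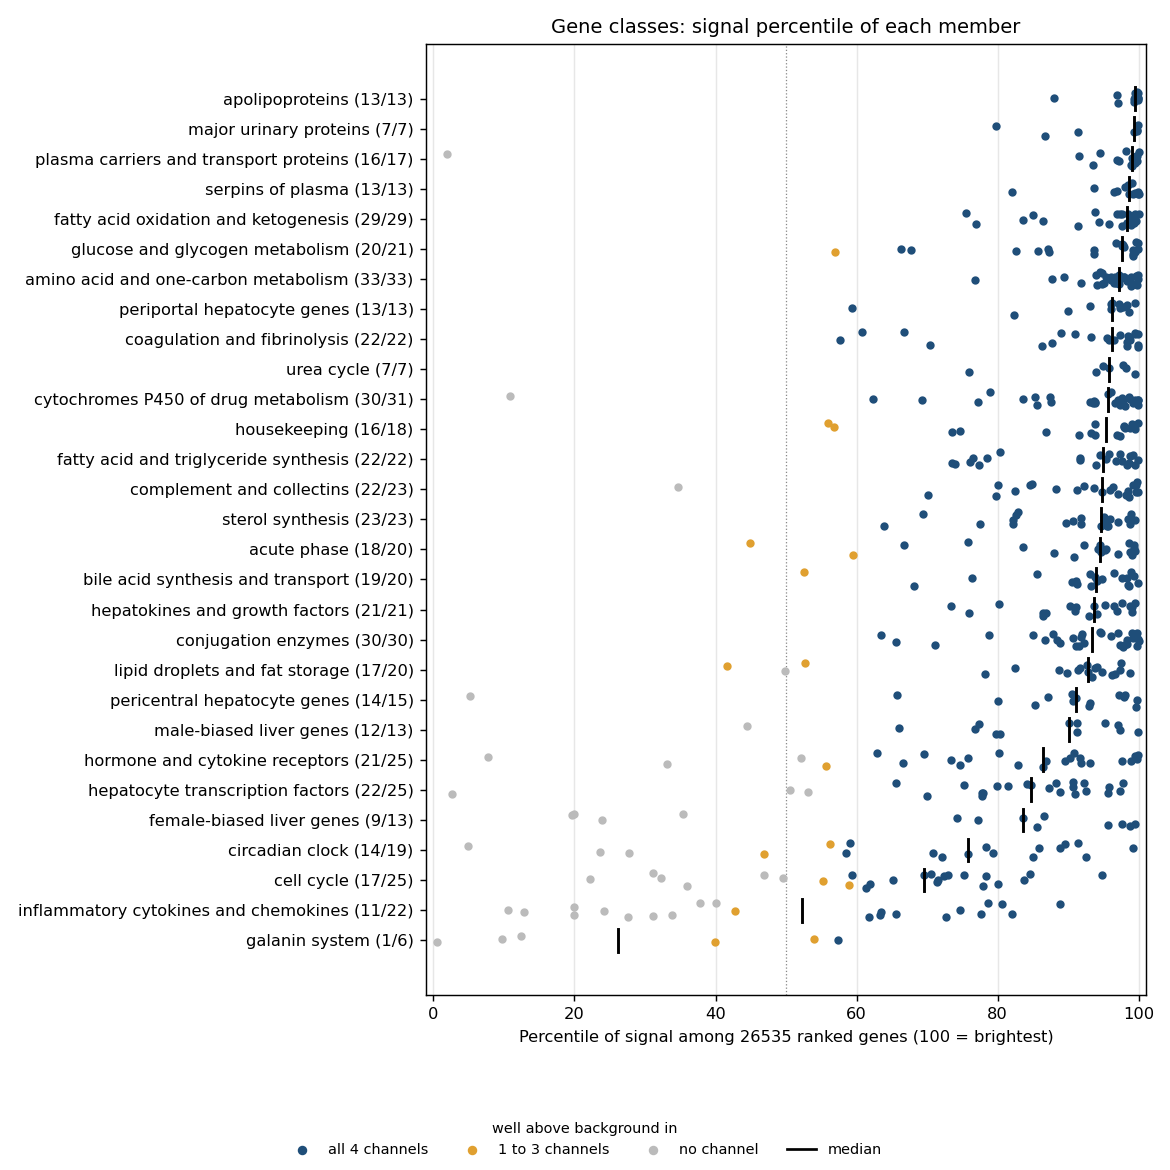
Percentile of signal (horizontal axis, 100 = brightest) of each ranked member of 29 lists of liver functions, liver zones and sex-biased genes (vertical axis, by median, with the number above background in all 4 channels over the number ranked); colours give the number of channels above background and black ticks the medians. Apolipoproteins lay at the top with a median of 99.5, and inflammatory cytokines and the galanin system lay lowest, with medians of 52.3 and 26.2.

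Genes of fuel metabolism were called nearly throughout. For fatty acid oxidation and ketogenesis, 29 of 29 ranked genes were above background in all 4 channels, with a median percentile of 98.4 and 20 members among the 1000 brightest genes. Acaa2 led, Hadhb, a subunit of the mitochondrial trifunctional protein, was the median at rank 438, and Pdk4, which holds back glucose oxidation, was the lowest at rank 6506 (9.38, 8.22, 8.76 and 8.84). For fatty acid and triglyceride synthesis the number was 22 of 22, with a median percentile of 95.0. Dgat2, which completes triglyceride synthesis, read 16.03, 15.71, 16.14 and 16.02 (rank 40), and fatty acid synthase (Fasn) read 15.37, 15.15, 15.51 and 15.38 (rank 122). The carbohydrate-sensing factor Mlxipl was the median at rank 1459 and acetyl-CoA carboxylase Acaca the lowest at rank 7018. Of this list, the desaturase Scd1 was left out because its probe was flagged in 3 of 4 channels. Without the flag filter it stood at rank 16, with 16.83, 16.03, 16.84 and 15.95.

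All 23 genes of sterol synthesis were above background in all 4 channels, from Sc5d, a late desaturase of the pathway, at rank 150, through Hsd17b7 at rank 1429, to mevalonate kinase (Mvk) at rank 9590.

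Of 20 genes of lipid droplets and fat storage, 17 were above background in all 4 channels, with a median percentile of 92.8. Plin2, the main droplet coat protein of hepatocytes, read 14.57, 14.37, 14.54 and 14.60 (rank 325). Cidec, which fuses droplets, stood at rank 909, Cidea at rank 1954 with 11.90, 11.77, 12.02 and 11.84, and Pparg, a regulator of fat storage, at rank 2205. The adipocyte coat protein Plin1 was above background in no channel (3.42, 4.81, 4.94 and 4.79). The lipase Pnpla3, the lowest member at rank 15499, was called in control channel 2 alone, with 5.62 against 3.58, 3.19 and 3.24. With no lean liver in the series, these places cannot be read as raised or lowered by the diet.

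For glucose and glycogen metabolism, 20 of 21 genes were above background in all 4 channels. Gapdh was the brightest at rank 16, glucose-6-phosphatase (G6pc), which releases glucose, was the median at rank 616 (13.95, 13.57, 13.94 and 13.70), and the muscle hexokinase Hk2 was the lowest at rank 11423, called in 3 channels. In the urea cycle, 7 of 7 ranked genes were called in all 4 channels, from Ass1 at rank 135 through Asl at rank 1102 to the ornithine carrier Slc25a15 at rank 6368. For amino acid and one-carbon metabolism the number was 33 of 33, with Pcbd1 at rank 12 and the methyl transferase Gnmt at rank 13, Oat as the median at rank 746 and Shmt1 as the lowest at rank 6173.

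Of 31 ranked cytochromes P450 of drug metabolism and their partner Por, 30 were above background in all 4 channels. Cyp2d26 read 16.58, 16.34, 16.63 and 16.83, Cyp2b13 was the median at rank 1140, and Cyp1a1, an enzyme induced by dioxin-like compounds, was not above background in any channel (3.06, 2.59, 2.998 and 3.44). All 30 conjugation enzymes were called in all 4 channels, from Mgst1 through Ugt2a3 at rank 2066 to the estrogen sulfotransferase Sult1e1 at rank 9709. Of 20 genes of bile acid synthesis and transport, 19 were called in all 4 channels. Akr1c6 led at rank 19, the rate-limiting enzyme Cyp7a1 stood at rank 2364 (11.58, 11.49, 11.54 and 11.38), Acox2 was the median at rank 1632, and Akr1d1 was the lowest at rank 12581, called in 1 channel.

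Hepatocytes near the central vein and near the portal vein use different genes. Of 15 pericentral genes, 14 were above background in all 4 channels, with a median percentile of 91.1, and of 13 periportal genes 13 were, with a median of 96.2. Rgn (rank 71), Cyp7a1 and Axin2 were the highest, median and lowest pericentral members, and Axin2, a target of Wnt signalling, was called in no channel (3.02, 2.42, 3.13 and 3.25). Ass1, Etnppl (rank 1017) and Cdh1 (rank 10804) held these places among the periportal genes.

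Of 13 male-biased liver genes, 12 were above background in all 4 channels, from Cyp2d9 at rank 11 through Cyp4a12b at rank 2607 to Cspg5 at rank 14755, which was called in none. Of 13 female-biased genes, 9 (69.2%) were called in all 4 channels, against 41.3% of all genes, although the mice were labelled male. Cyp3a41a read 15.59, 14.88, 15.45 and 15.05 (rank 147), and Cyp3a16 was the median at rank 4358. Of the 9 called female-biased genes, 7 carry Cyp names and belong to families of similar sequence, and the share of signal from related transcripts was not tested. Sult3a1, Cux2, A1bg and Prom1 were not above background in any channel, with means from 3.12 to 3.61.

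Regulators stood lower than enzymes and plasma proteins. Of 25 hepatocyte transcription factors, 22 were above background in all 4 channels, with a median percentile of 84.7. Creb3l3, a membrane-bound factor of the fasting response, was the highest at rank 584, Nr1i3, the receptor CAR, the median at rank 4064, and Hnf4a, which sets hepatocyte identity, stood at rank 4935 with 9.57, 9.76, 9.57 and 9.94. Foxa1 (2.91 ± 0.21) and Gata4 (4.58 ± 0.52) were among those called in no channel. Of 19 clock genes, 14 were called in all 4 channels. The output factor Dbp led at rank 233 (14.97, 14.71, 15.07 and 14.70), the repressor Nr1d1 was the median at rank 6422, the activator Arntl stood at rank 11021 with 5.94 ± 0.14, and Npas2, Bhlhe41 and Per3 were called in no channel, with means from 2.95 to 3.30. The other probes of Nr1d1 (4.01 and 3.93) and the second probe of Arntl (3.13) were also called in no channel. The clock phase depends on the hour of sampling, which the sources used here do not state.

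Of 25 hormone and cytokine receptors, 21 were above background in all 4 channels. The adiponectin receptor Adipor2 read 16.19, 15.78, 16.16 and 15.99 (rank 37), the insulin receptor Insr read 9.96, 9.32, 9.55 and 9.28 (rank 5257), and Il1r1 was the median at rank 3606. The other probes of Insr (3.42 and 3.04) were called in no channel. Those of Adipor2 read 12.39, called in all 4 channels, and 3.78, called in none. Fgfr1 (4.81 ± 0.35) and the leptin receptor Lepr (3.51 ± 0.42) were among those not called in any channel. All 21 hepatokines and growth factors were above background in all 4 channels, from the retinol carrier Rbp4 at rank 132 through Angptl6 at rank 1672 to Inhba at rank 7080. The second probe of Inhba (4.66) was called in no channel, while that of Angptl6 (9.81) was called in all 4. Fgf21, which the liver releases on fasting and overfeeding, stood at rank 3619 with 10.67, 10.41, 10.66 and 10.42.

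The genes of the galanin system, to which the study's peptide belongs, were at or near background in these livers. Galanin itself (Gal) was the brightest member at rank 11325 and was called in all 4 channels, with 6.01, 5.71, 5.51 and 5.65. The 99th percentile of negative control spots in the same channels was 6.68, 5.38, 5.20 and 7.24, so Gal was above it in control channels 2 and 3 and below it in the other channels. The receptors Galr1 (2.75, 2.49, 3.02 and 2.91) and Galr2 (3.08, 2.61, 3.01 and 3.45) were called in no channel. Galr3 was called in control channel 3 alone, with 6.78 against 4.52, 4.18 and 4.94, and the related peptide Spx in control channel 2 alone, with 5.53 against 3.22, 3.21 and 3.31. The gene of GALP, Galp, was called in no channel (3.07, 2.52, 3.02 and 3.42). By probe signal, then, 1 of 6 members (16.7%) was above background throughout, against 41.3% of all genes, and low RNA could not be told from weak probes.

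Of 22 inflammatory cytokines and chemokines, 11 (50%) were above background in all 4 channels, near the 41.3% of all genes, and 0 were among the 1000 brightest genes. Cxcl9, a chemokine induced by interferon, was the brightest at rank 2974 (11.13, 10.89, 11.15 and 10.80). Il1a, the median member, was called in 1 channel, and Nos2, the lowest, in none. Of 25 cell cycle genes, 17 were called in all 4 channels, led by the replication clamp Pcna at rank 1376 (12.50, 12.53, 12.58 and 12.57), with Cdc20 as the median at rank 8069 and Aurkb as the lowest at rank 20648. Of 18 housekeeping genes, 16 were called in all 4 channels, with Ppia as the median at rank 1626. Tbp and Polr2a, a core transcription factor and the largest polymerase subunit, were called in 2 channels each, and Actb stood at rank 6706.

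Families named by their symbols covered genes that the lists did not. Of 17 ATP synthase subunits all 17 were above background in all 4 channels, of 42 NADH dehydrogenase subunits 41 (97.6%), of 80 cytosolic ribosomal proteins 76 (95.0%) and of 39 proteasome subunits 37 (94.9%). Of 84 cytochromes P450 the number was 61 (72.6%), and of 380 solute carriers 202 (53.2%). At the other end were families of sense organs, skin and embryonic patterning: 17 of 917 olfactory receptors (1.85%), 1 of 137 vomeronasal receptors (0.730%), 4 of 43 keratin-associated proteins (9.30%) and 0 of 39 Hox genes were called in all 4 channels. Hox genes called in 1 to 3 channels numbered 14. A few members of silent families were bright in every channel: Olfr571 read 11.03, 10.87, 10.76 and 10.85, and Krtap4-6 read 12.09, 11.65, 11.69 and 11.83. The keratin Krt8, an intermediate filament of hepatocytes, stood at rank 303.

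**Figure D4:**
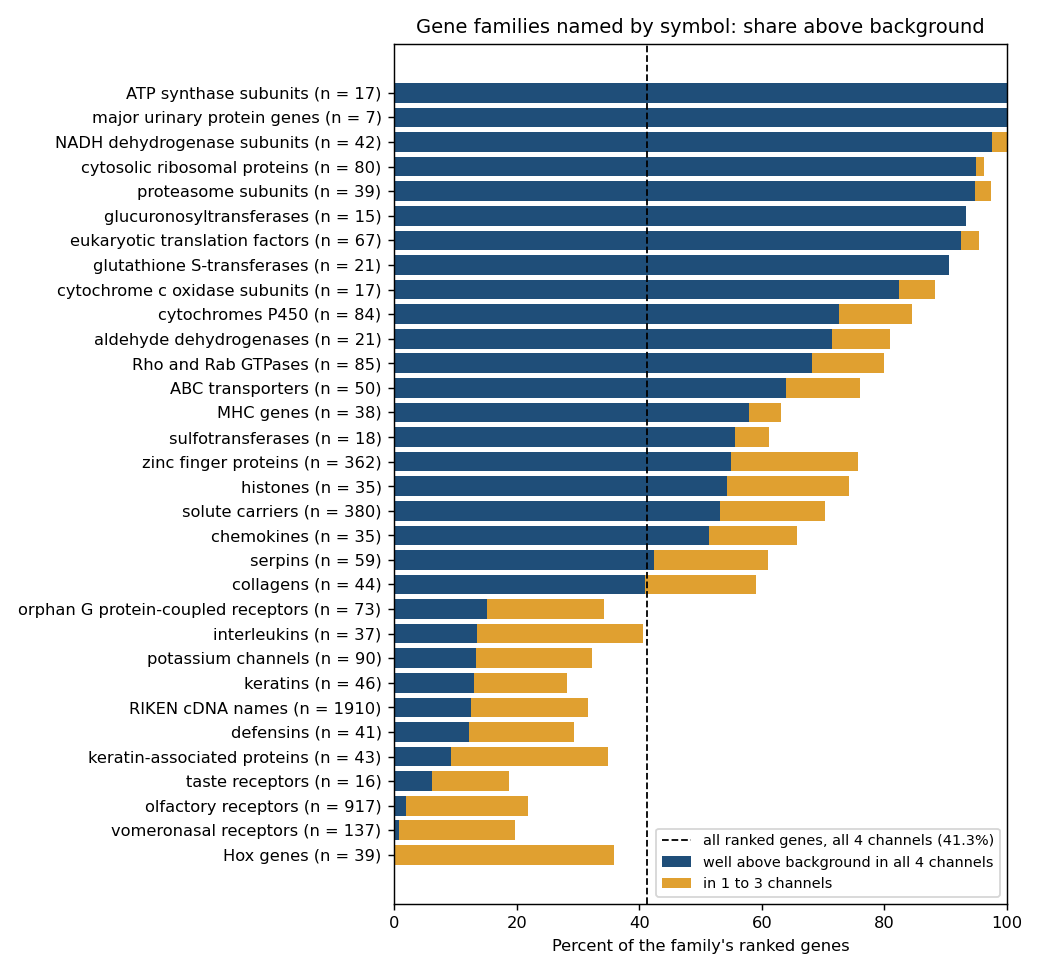
Percent of each family's ranked genes (horizontal axis) that were well above background in all 4 control channels (blue) or in 1 to 3 channels (orange), for 32 families defined by gene symbol (vertical axis, with the number ranked). The dashed line marks 41.3%, the share of all ranked genes; ATP synthase subunits reached 100% and olfactory receptors 1.85%.

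The label of liver was checked against markers. All 12 hepatocyte markers were above background in all 4 channels, with a median percentile of 98.9, from Fgb at rank 41 through Serpina1c at rank 406 to Hnf4a. Cells that surround hepatocytes were represented as well. Of 20 markers of Kupffer cells and macrophages, 18 were called in all 4 channels, with a median percentile of 87.9: Cd5l read 13.47, 13.26, 13.40 and 13.49, Folr2 was the median at rank 3446, and Ccr2 and Itgam, which mark recruited monocytes and other myeloid cells, were called in no channel. Of 20 endothelial markers, 19 were called, led by the sinusoidal lectin Clec4g at rank 392, with Lyve1 as the median at rank 6375. Of 22 markers of stellate cells and fibroblasts, 19 were called, with the proteoglycan Dcn at rank 299 and Ngfr as the median at rank 5836, while Des, Hand2 and Gfap were called in none. The calls of both lists depended on the probe: with the median probe, 12 endothelial and 9 stellate and fibroblast markers were called. Clec4g had 3 probes, which read 14.30, 3.18 and 3.06, and the second probes of Lyve1 (3.33), Dcn (3.68) and Ngfr (3.31) were also called in no channel. Of 16 bile duct markers, 10 (62.5%) were called, against 41.3% of all genes. Spp1 stood at rank 1200 and Sox9 at rank 10403, while Epcam, Cftr, Muc1, Cldn4 and Sctr were called in none.

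Blood and immune cell markers had lower median percentiles, from 45.3 to 59.1. Against 41.3% of all genes, 4 of 18 T and NK cell markers (22.2%), 3 of 13 neutrophil markers (23.1%) and 3 of 9 erythroid markers (33.3%) were called in all 4 channels. Of 12 B and plasma cell markers 6 were called (50%) and of 11 dendritic cell markers 5 (45.5%), shares near that of all genes. The brightest listed markers were the kinase Zap70 at rank 3084, Sdc1 at rank 2164, S100a9 at rank 3830, Cd74 at rank 1624 and the hemoglobin chain Hba-a1 at rank 91 (15.67, 15.51, 15.54 and 15.50). The globin genes Hba-a2 (rank 48) and Hbb-bt (rank 50) were brighter but were not among the ranked erythroid markers. Of the erythroid symbols, 2 were not matched to the array. Sdc1 is also a hepatocyte proteoglycan, and Cd74 is shared by all cells that present antigen. Rhag, a protein of the red cell membrane, was the lowest erythroid member and was called in no channel. Of 12 adipocyte markers 6 (50%) were called, among them Car3 at rank 139, which liver also makes, while Lep, Plin1, Retn, Ucp1 and Adig were called in none.

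Genes of the exocrine pancreas stood high for another tissue. Of 15 ranked pancreas markers, 12 (80.0%) were above background in all 4 channels, with a median percentile of 93.5 and 5 members among the 1000 brightest genes. The digestive carboxypeptidase Cpa1 read 15.19, 14.67, 14.80 and 14.54 (rank 251). The elastase Cela3b read 15.05, 14.75, 14.62 and 14.71 (rank 255), and the lipase Cel read 14.41, 14.26, 14.31 and 14.18 (rank 398). The trypsin Prss2 stood at rank 710 and the chymotrypsin-like Ctrl, the median, at rank 1722. Of the hormone genes of the islets, Ins2 stood at rank 8839 (7.04, 7.31, 7.63 and 7.79), Ins1 was called in 2 channels, and Gcg and Sst were called in none. The summed signal of the list was 0.318% to 0.370% of the total in the 4 channels. Since all channels come from 1 pool of 8 livers, the share of animals that carried this signal cannot be told, and its source was not tested.

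Skeletal muscle markers also stood above the share of all genes. Of 14 such markers 10 (71.4%) were called in all 4 channels, against 41.3%, with a median percentile of 65.5 and Tnni2 as the brightest at rank 2654, while Actn3, Pvalb and Casq1 were called in none. Of 21 markers of stomach and intestine 8 (38.1%) were called, with the fatty acid carrier Fabp2 at rank 266 (14.92, 14.45, 14.80 and 14.78), the median Vil1 at rank 12948 and Gkn1 the lowest at rank 26230. Of 14 brain markers 3 were called, of 12 kidney markers 2 and of 12 testis markers 1, with Syn1 (rank 6814), Slc22a12 (rank 8005) and Prm1 (rank 7492) as the brightest. With the median probe, 8 skeletal muscle, 8 stomach and intestine, 0 brain, 2 kidney and 0 testis markers were called. The second probe of Syn1 (3.23) and the other probes of Prm1 (3.62 and 3.42) were called in no channel. The summed signal of the skeletal muscle list was 0.0180% to 0.0194% of the total in the 4 channels. That of the brain, kidney and testis lists was at most 0.00372% each in every channel.

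**Figure D5:**
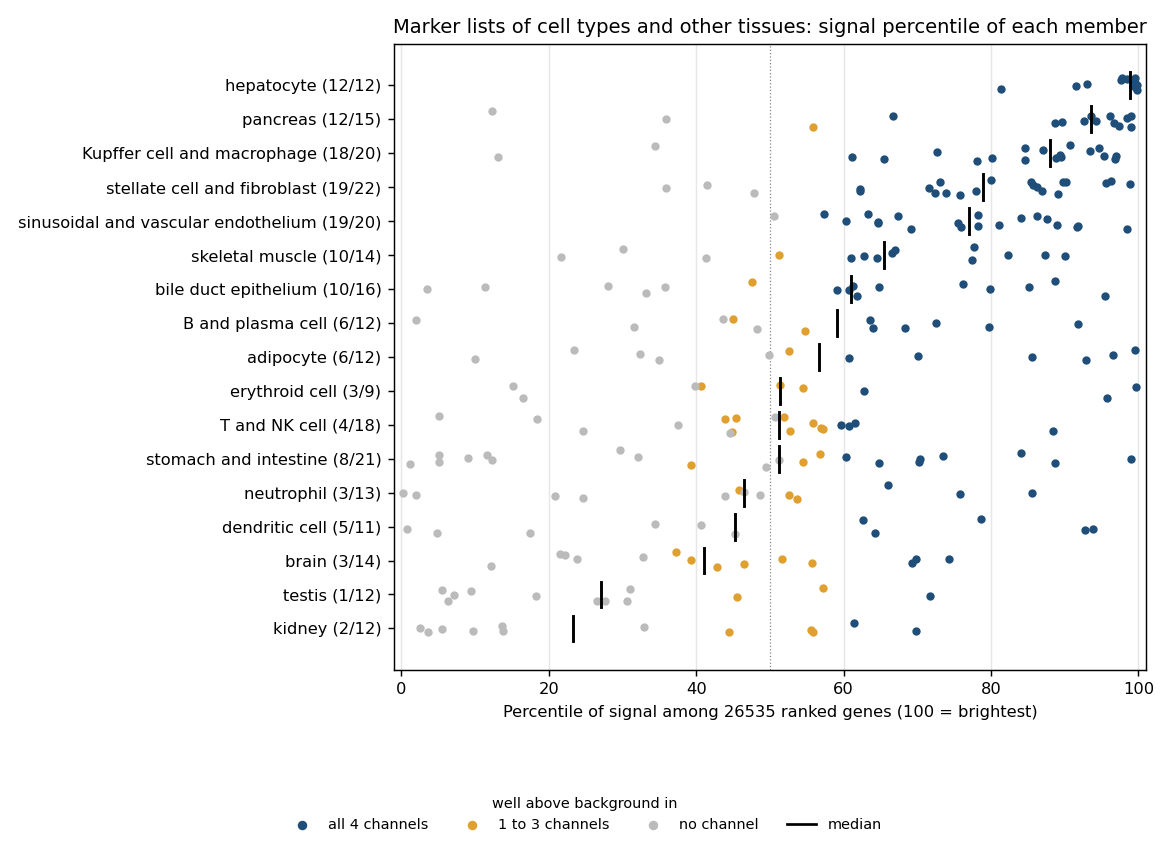
Percentile of signal (horizontal axis, 100 = brightest) of each ranked member of 17 marker lists of cell types and other tissues (vertical axis, by median, with the number above background in all 4 channels over the number ranked); colours give the number of channels above background and black ticks the medians. Hepatocyte markers lay at a median of 98.9, pancreas markers at 93.5 and kidney markers at 23.4.

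The same RNA in the 2 dyes gave nearly the same picture for bright genes. After the median difference of each pair of arrays was removed, 497 of 15264 genes called in at least 1 channel (3.26%) read over 1.5-fold higher in Cy5 than in Cy3 on both pairs, and 203 (1.33%) read over 1.5-fold lower. Restricted to genes called in all 4 channels, the numbers were 48 and 17. Among the 1000 brightest genes, 0 read higher in Cy5 and 2 lower: Fth1, with 16.16 and 16.12 in Cy5 against 17.16 and 16.90 in Cy3, and the transcript ENSMUST00000219220.1, with 12.63 and 12.54 against 14.41 and 13.29.

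The probe that stood for a gene moved its place more than the hybridisation did. For 9248 gene names with at least 2 probes, the median SD between probes was 1.53 and the median SD between channels 0.23, both on the log2 scale. For 441 such genes among the 1000 brightest, the median SD between probes was 3.19, and in 73 of them the second-brightest probe was not above background in all 4 channels. Genes enter the 1000 brightest by their brightest probe, so the larger SD there is partly set by the ranking itself. The second probe of Mgst1 read 14.60, and the probes of Gapdh read 16.41, 14.38 and 4.87. For the growth hormone receptor Ghr, 5 probes read 14.59, 14.51, 12.46, 8.77 and 8.38. With the probe of median signal, which is the dimmer one where a gene has 2, Mgst1 stood at rank 194, C3 at rank 4709 and Serpina3k at rank 2166, while Acaa2 and Hpx stood at ranks 1 and 2. Of 109 genes named by rule and called in all 4 channels, 12 lost that call with the median probe. The clock list went from 14 called members to 8, the receptors from 21 to 16, and the apolipoproteins, plasma carriers, hepatocyte markers and pancreas markers kept their counts of 13, 16, 12 and 12.

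Flags removed some bright liver genes from the ranking. Of 47 gene names without a probe unflagged in all 4 channels, 22 would have been among the 1000 brightest. Beside Scd1, they included arginase Arg1 (rank 227 without the filter), prothrombin F2 (rank 529) and the fatty acid carrier Fabp1 (rank 860), each flagged in 1 channel. In 34 other gene names the filter put a dimmer probe in place of the brightest, and 13 of them were among the 1000 brightest without it. Rps18 moved from rank 23 to 601, Uqcrq from 279 to 9417 and Rpl35a from 1508 to 20721. Rpl35a, then at a mean of 3.16, was the lowest of the 80 cytosolic ribosomal proteins.

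Promoters were set beside the ranking as sequence context. RefSeq promoters (250 bases before to 50 after the start, GRCm38.p6) were matched by gene ID for 12575 ranked genes that have 1 listed promoter. The letters TATAAA, the core of the TATA box that places the start of transcription, were searched on the sense strand with their first base 40 to 20 bases before the start. They were found in 7 of 60 promoters of the 100 brightest genes (11.7%), in 16 of 564 of the next 900 genes (2.84%), in 41 of 2386 of the 4000 genes after them (1.72%) and in 305 of 9565 of the other 21535 (3.19%). Of all 22862 genes with 1 listed promoter in the table, 2.42% held it, and of the 12575 ranked ones 2.93%. The first number rests on 7 genes. The 60 bases before the start of these 7 genes are shown here because they carry it, 5′ to 3′ on the gene's strand, with TATAAA and, where present, GTTAAT in capitals:

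Ces3b (carboxylesterase, rank 14, chr8:105083695-105083754, plus strand): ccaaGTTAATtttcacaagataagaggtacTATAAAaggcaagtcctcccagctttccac

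Sod1 (superoxide dismutase, rank 44, chr16:90220702-90220761, plus strand): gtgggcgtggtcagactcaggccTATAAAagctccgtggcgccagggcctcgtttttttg

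Hbb-bt (beta globin, rank 50, chr7:103813924-103813983, minus strand): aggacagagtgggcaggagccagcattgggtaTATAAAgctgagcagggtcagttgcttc

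Mup4 (major urinary protein, rank 64, chr4:59960668-59960727, minus strand): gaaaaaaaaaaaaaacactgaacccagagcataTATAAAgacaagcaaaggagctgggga

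Ftcd (histidine and folate metabolism, rank 77, chr10:76575588-76575647, plus strand): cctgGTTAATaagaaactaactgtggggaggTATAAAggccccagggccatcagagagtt

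Prdx1 (peroxiredoxin, rank 80, chr4:116685539-116685598, plus strand): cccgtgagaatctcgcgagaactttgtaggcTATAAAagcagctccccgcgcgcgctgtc

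H2-Q2 (histocompatibility antigen, rank 90, chr17:35342247-35342306, plus strand): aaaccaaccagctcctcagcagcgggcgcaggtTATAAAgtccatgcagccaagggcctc

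In all, 7 motifs were searched, and they were chosen after the ranking was seen. The other motifs were searched on both strands over the whole promoter. GTTAAT, the core of the site of the hepatocyte factor HNF1, was found in 11 of 60 promoters of the 100 brightest genes (18.3%), in 7.98%, 3.98% and 6.29% of those of the next 3 bands, and in 7.35% of all promoters in the table. For GGGCGG, the core of the GC box bound by Sp1, these shares were 43.3%, 56.6%, 66.5%, 45.2% and 35.2%. For CCAAT they were 45.0%, 43.1%, 39.0%, 38.6% and 38.2%, and for TTGCNNAA, a form of the site of C/EBP factors, 16.7%, 11.7%, 8.80%, 9.74% and 10.8%. The full palindromic HNF1 site was found in 0 promoters of ranked genes. CAAAGTCCA, a form of the site of HNF4A, was found in 0 of 60 promoters of the 100 brightest genes and in 1.24%, 0.419% and 0.491% of the next 3 bands, against 0.486% of the table. Of the 12575 ranked genes with 1 listed promoter, 5.99% held GTTAAT, 49.8% GGGCGG, 38.9% CCAAT, 9.69% TTGCNNAA and 0.509% CAAAGTCCA. For GGGCGG the 100 brightest genes (43.3%) thus lay below all ranked genes, though above the whole table. The median GC content of these promoters was 55.3%, 58.3%, 61.0% and 56.0% in the same 4 bands, and their median ratio of observed to expected CpG was 0.425, 0.702, 0.798 and 0.535. The median GC content of the probes was 45.0%, 45.0%, 43.3% and 40.0%, so probe composition moved with rank as well, and its part in the ranking was not tested.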

How the data were processed

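The sources were 4 two-colour Agilent 60-base arrays, with total RNA of pooled livers. Per the file headers, the deposited intensity values were made with Feature Extraction 12.0.3.1. The submitters' processing notes name Agilent Feature Extraction 11.0.1.1. The authors' processed signal is background-subtracted, with the dyes set against each other within an array. It therefore depends in part on the GALP channel, and it was not normalized between arrays. The files hold 43379 spots that are no controls (41174 probes). Spots flagged as non-uniform or population outliers in the control channel were left out, spots of a probe were averaged on the log2 scale, and a probe needed a value in all 4 channels (41078 probes). The number of arrays, all of 1 pool, limits the precision. As alternatives, MeanSignal was corrected with normexp (offset 50) and quantile normalized with limma 3.58.1 in R 4.3.3, and channels were scaled to their 75th percentile. Python 3.11.15 was used, and the scripts were tested on simulated data. Symbols were matched to RefSeq through accessions for 19176 genes (72.3%).

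The gene lists, families and bands of rank were chosen with earlier results of these data known, and the 7 promoter motifs and the use of genes with 1 promoter after the ranking and first shares had been seen. The centring of the dye comparison, its restriction to genes called in at least 1 channel, and the count of lists above the share of all genes were also set during the analysis. The genes named were, by rule, the 25 brightest, the highest, median and lowest of each list (the dimmer of the middle pair in lists of even size) with its undetected members where these were at most 5, the 5 of widest SD among the 1000 brightest, and the galanin system. Other genes named were chosen after their values were seen. Features of proteins and the table of the authors' log ratios were not used here. Of the list of stomach and intestine, 1 symbol matched an unrelated gene by an old name and was dropped. Some genes that the rule or the lists name are not reported here.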

Additional observations from a re-analysis of the deposited data

Results flagged for a closer look

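In 13 of 188 genes named by rule, 1 of the 4 control channels stood apart from the other 3 by Dixon's ratio, the gap to the nearest channel over the whole range, being above its critical value for 4 samples. Chance gives about 1 in 20. Control channel 2 was the distant one in 8 of the 13 genes, control channel 4 in 3 and control channel 1 in 2, and 6 of the 13 were above background in all 4 channels.

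Among these 6, control channel 2 was lowest for Gpx1 (ratio 0.831), Cox6a1 (0.833), Apoc2 (0.836) and Fgb (0.968), at 16.41, 16.33, 16.10 and 15.71 against medians of 16.79, 16.70, 16.51 and 16.06 in the other channels. Control channel 2 was the lowest channel for 93 of the 100 brightest genes, so these 4 flags go with low readings of bright genes in that channel. Over all ranked genes, its median (4.80) lay above those of control channels 1 (4.69) and 3 (4.76). Signals were not normalized between arrays, and the reason for the low readings was not tested. Aldh1a1 stood out upwards in control channel 1 (0.918; 17.27 against 15.99) and Nr1d1 in control channel 4 (0.914; 8.97 against 8.80). Of genes called in 1 channel, Pnpla3 (0.841) and Spx (0.958) stood out upwards in control channel 2 and the neurofilament gene Nefl (0.921) in control channel 4, with 6.67 against 2.83. Of genes called in none, Plin1 (0.904) was low in control channel 1, Sctr (0.860) and Cd209a (0.842) were low in control channel 2, and Cldn4 (0.912) was high in control channel 4.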

How the results depend on the processing

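The number of genes above background in all channels used ran from 10962 to 11175 when each hybridisation was left out in turn, and from 7889 (median probe of each gene) to 15264 (a call in at least 1 channel) over the other settings, against 10958. Genes above background in none fell from 11271 to 6731 when genes matched to RefSeq alone were kept. Those above background in all channels went from 10958 to 10155. The names left out were thus mostly not called in all 4 channels, and they lower the 41.3% of all genes used for comparison. Of the 100 brightest genes, 97 to 100 remained so without a hybridisation, 94 with Cy3 alone and with normexp and quantile normalization, 96 with Cy5 alone, and 66 with the median probe (the dimmer where a gene has 2). The share of signal in the 100 brightest genes moved from 18.2% to 14.1% with normexp, 24.7% with the median probe and 18.9% with RefSeq genes alone. Of 29 lists of functions, zones and sex-biased genes, 28 had a larger share of members above background than all genes, and 27 or 28 had under every setting run. For the 17 marker lists the number was 10, and 7 to 12 over the settings. It was 7 with RefSeq genes alone and with the 99th percentile of negative control spots. Genes higher and lower in Cy5 numbered 226 and 93 at 2-fold, 48 and 17 among genes called in all 4 channels, and 13 and 2 with normexp. TATAAA was found in 4.76% of promoters in the second band when bands of 50 and 500 were used, against 2.84%, and in 9.68% of the first. With the first-listed promoter of every gene, an alternative chosen after seeing the data, it was found in 11.0% of the 100 brightest. The galanin system had 0 members over the 99th percentile of negative control spots in all 4 channels, and 3 of 6 were called in at least 1. Of the counts and medians of single lists under all settings, 1001 stayed within their limits and 149 moved. Keeping RefSeq genes alone moved the median percentile of all 46 lists. The median probe moved 36 medians and 7 counts of called members. The reason for each move was not tested. No paired analysis was possible because all 4 channels hold the same control pool and form 1 group. Depth does not apply to arrays, and genes called in no channel had mean log2 signals of up to 5.30.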
